A study of Mus musculus with 4 samples.

Results

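The genes described here belong to bone morphogenetic protein (BMP) signalling and were read in smooth muscle cells cultured from mouse aorta. They are the ligands Bmp2 and Bmp4, the secreted antagonists Nog and Grem1, the receptor Bmpr2, the inhibitory signal transducer Smad6 and the target genes Id1, Id2 and Id3. The set was chosen by gene symbol, and every non-control probe whose RefSeq accession led to 1 of these symbols was taken. This gave 9 genes and 10 probes, out of 21367 named genes and 55679 probes on the array.

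The study asked how vascular smooth muscle cells deficient in chaperone-mediated autophagy differ in their transcriptome. Cells came from the aortas of wild-type (WT) mice or of LAMP-2AKO (L2AKO) mice, C57BL/6J by the labels, which lack LAMP-2A, the lysosomal receptor of that pathway. All 4 groups were confluent cultures of passage 12 to 16, kept for 24 h in DMEM with 5% LPDS (lipoprotein-deficient serum). The WT LDL and L2AKO LDL groups also received LDL at 150 µg/ml LDL-cholesterol and bovine lipoprotein lipase at 0.1 U/ml. The WT control and L2AKO control groups were without LDL, and the sources used here do not say whether they were given the lipase. Each group was 1 array of RNA pooled from a triplicate, so no value below carries a replicate error or a p-value, and a difference between genotypes compares these cell preparations. How the allele was made, and the sex and age of the mice, are not stated in the sources used here.

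BMP ligands bind pairs of type I and type II receptors, of which Bmpr2 is the type II receptor best known from the vessel wall. The activated receptors phosphorylate SMAD1, SMAD5 and SMAD9, which join SMAD4 and enter the nucleus. Noggin and gremlin-1 bind ligands outside the cell, and SMAD6 blocks the pathway inside it as a product of its own target gene. The Id genes are early BMP targets, and their proteins bind E proteins and keep them from DNA. In the vessel wall this pathway is known from pulmonary arterial hypertension and from vascular calcification.

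Promoter sequences of 4 of these genes are shown, because 3 of them (Id2, Id3 and Smad6) were lower together in L2AKO while the other (Bmpr2) hardly differed. Each is the 250 bases before the transcription start, from RefSeq on GRCm38.p6, 5′ to 3′ on the gene's own strand. Capitals mark matches to GGCGCC, the GC-rich SMAD1/5 element, and to GTCT or its reverse complement AGAC, the SMAD box, searched on both strands. The windows lie at chr12:25096093-25096342 on the minus strand (Id2), chr4:136143572-136143821 on the plus strand (Id3), chr9:64022060-64022309 on the minus strand (Smad6) and chr1:59764029-59764278 on the plus strand (Bmpr2).
Id2: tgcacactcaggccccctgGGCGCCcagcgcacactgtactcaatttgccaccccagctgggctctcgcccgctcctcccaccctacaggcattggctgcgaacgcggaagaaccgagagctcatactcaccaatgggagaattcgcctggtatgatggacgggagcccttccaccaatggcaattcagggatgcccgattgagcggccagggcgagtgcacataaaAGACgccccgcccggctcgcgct
Id3: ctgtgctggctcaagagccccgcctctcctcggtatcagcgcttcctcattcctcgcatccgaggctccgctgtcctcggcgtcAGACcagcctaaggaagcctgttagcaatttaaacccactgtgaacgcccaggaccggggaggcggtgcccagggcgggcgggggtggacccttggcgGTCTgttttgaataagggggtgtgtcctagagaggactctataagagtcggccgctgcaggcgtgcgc
Smad6: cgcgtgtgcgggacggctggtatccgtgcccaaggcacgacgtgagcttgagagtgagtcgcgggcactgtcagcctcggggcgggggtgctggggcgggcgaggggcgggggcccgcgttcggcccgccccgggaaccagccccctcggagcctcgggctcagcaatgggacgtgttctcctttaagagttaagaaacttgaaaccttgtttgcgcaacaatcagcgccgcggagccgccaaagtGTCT
Bmpr2: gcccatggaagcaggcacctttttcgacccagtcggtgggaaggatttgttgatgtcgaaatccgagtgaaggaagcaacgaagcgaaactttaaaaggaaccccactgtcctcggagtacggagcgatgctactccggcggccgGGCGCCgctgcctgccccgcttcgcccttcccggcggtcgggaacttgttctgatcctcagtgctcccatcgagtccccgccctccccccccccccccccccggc

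The promoter table matched 6 of the 9 genes, namely the 4 printed above, Bmp4 and Grem1. Id1, Bmp2 and Nog had no entry. GGCGCC was found in 3 of the 6 (Id2, Grem1 and Bmpr2), against 9.59% of 32851 promoters of that length. The 6 windows hold 62.8% to 72.0% G and C, above the median of 52.4% over all promoters. The motif is made of G and C alone, and 2 of 8 promoters of the wider target list held it. The SMAD box, a short motif, was found in 5 of the 6, all but Bmpr2, against 82.9% of all promoters. Among the printed windows, Id2 had 1 match to each motif, Id3 had 2 SMAD boxes, Smad6 had 1 SMAD box and Bmpr2 had 1 GC-rich element. These matches describe letters in a window and say nothing about binding.

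The 75th percentile of an array, subtracted from its log2 intensities, lay between 318.8 and 433.8 intensity units, and 47.2% to 52.0% of probes were well above background. Saturated spots were absent. A second slide carried the L2AKO LDL array, so slide and group cannot be told apart in any comparison that uses it. There, 7 of 8 spike-in controls read higher or lower than on any of the other 3 arrays. They deviated from the mean of those 3 arrays by -1.19 to 0.63 on the log2 scale. On the first slide no spike-in spanned more than 0.5. The comparisons without LDL and of WT with WT used 1 slide. Lamp2, the targeted gene, was lower in L2AKO on 1 of its 2 probes (log2 difference -1.38 without LDL) and not on the other (0.04), and the sources used here do not say which probe the deletion touches. Of 10 smooth muscle markers, Acta2, Tagln, Cnn1, Smtn and Actg2 were above background on all arrays, whereas Myh11, Myocd, Lmod1 and Des were above it on none. Differences are given on the log2 scale, 1 corresponding to 2-fold, and a gene was counted as higher or lower in a comparison from 2-fold on. Spots printed repeatedly on 1 array gave the only measured error, an SD of 0.06 to 0.07 for a difference between arrays of a bright probe and of 0.12 to 0.13 for a dim one, which covers technical spread within arrays only.

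The target genes were lower in L2AKO than in WT. Id1 was 5.78-fold lower without LDL and 6.43-fold lower with LDL, and Id2, Id3 and Smad6 were 2.08- to 2.19-fold lower without LDL. Bmp4 (1.94-fold) and Grem1 (1.99-fold) were lower by a similar amount without LDL, Bmp2 was below background in L2AKO, and Bmpr2 hardly differed. Without LDL, on 1 slide, 4 of 8 measured members were lower by 2-fold or more and none higher, where 8.21% of 12593 measured genes were lower and 7.56% higher. That count was 2 with median scaling and 2 after normexp, since Id2, Id3 and Smad6 lay close to 2-fold. With LDL 6 of 8 were lower and none higher, against 10.4% lower and 8.3% higher of 12934 genes. This count dropped to 4 when arrays were scaled by their median and to 4 under normexp. The values the authors deposited also gave 4, and looser dim filters gave 7. The median difference of the measured members was -1.02 without LDL and -1.24 with LDL, while that of all measured genes was -0.01 and -0.05. Of the 8 members above background on all arrays, 7 had both L2AKO arrays below both WT arrays, a pattern shown by 38.3% of 12491 genes, with Bmpr2 as the exception. Among these 7, the separation of Nog was not resolved, its gap between WT LDL and L2AKO control (0.25) being within 2 spot SDs. RNA of whole cultures was measured, so fewer expressing cells and less RNA per cell cannot be told apart.

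**Figure D1:**
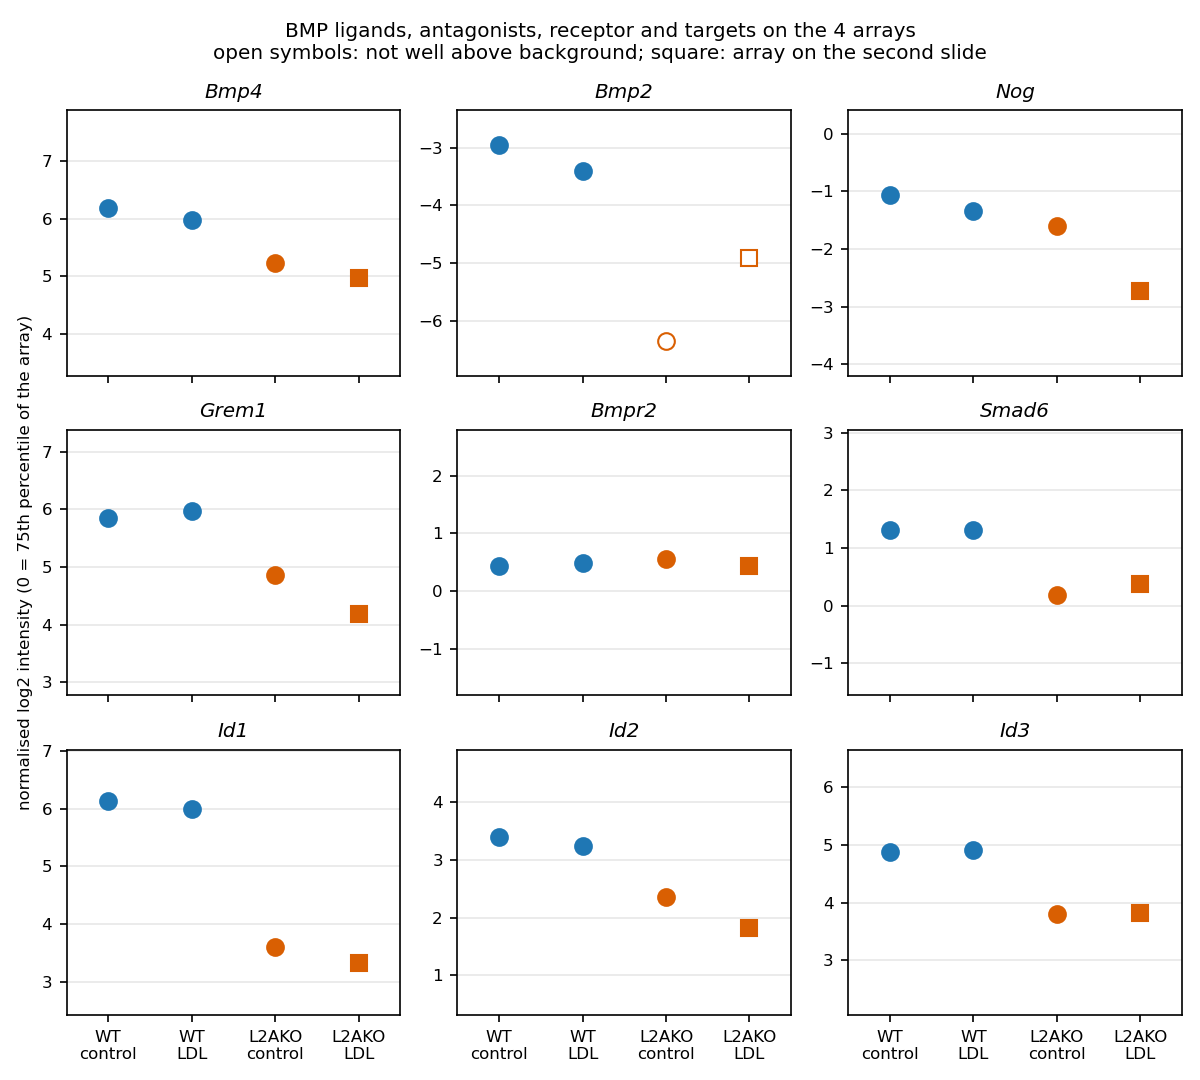
Normalised log2 intensity (vertical axis, 0 being the 75th percentile of the array) of the 9 genes on the 4 arrays (horizontal axis), 1 point per array and no error bar, with WT in blue and L2AKO in orange, every panel spanning the same number of log2 units. Id1 drops from 6.13 and 6.00 in WT to 3.60 and 3.32 in L2AKO, Bmpr2 stays between 0.43 and 0.55, and open symbols mark Bmp2 below background in L2AKO.

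Among the ligands, Bmp4 had a normalised log2 intensity of 6.19 (control) and 5.97 (LDL) in WT and of 5.23 and 4.97 in L2AKO. Both L2AKO arrays were below both WT arrays. The difference between genotypes was -0.96 without LDL, just short of 2-fold, and -1.0 with LDL, just past it (spot SD 0.07 and 0.06). A second Bmp4 probe stayed below the background limit on all 4 arrays. It therefore gave no second reading of the gene.

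Bmp2 encodes a ligand close to Bmp4 in sequence and known from bone formation and vascular calcification. Its probe was dim, with -2.95 in WT control and -3.41 in WT LDL, and it was not well above background in L2AKO control (-6.35) or L2AKO LDL (-4.91). The WT level was therefore at least about 2.60-fold higher without LDL and at least about 2.83-fold higher with LDL. For this the L2AKO side was set to its own reading or, if that was lower, to the dimmest probe well above background on the array. The L2AKO LDL reading was above that dimmest probe (-5.08), so 2.83 rests on a reading not well above background. Here and below, folds given as at least are approximate and not strict limits. No fold between the L2AKO arrays can be given.

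Both antagonists were at least 2-fold lower in L2AKO with LDL, on the array of the second slide, and neither reached 2-fold without LDL. Grem1, gremlin-1, read 5.85 without LDL and 5.97 with it in WT, and 4.86 and 4.18 in L2AKO. The genotypes did not overlap, and the L2AKO LDL array was lowest. The genotype difference was -0.99 without LDL (spot SD 0.07) and -1.80 with LDL (spot SD 0.06), and 8.32% and 3.57% of measured genes were at least as low. Nog, noggin, read -1.06 (control) and -1.34 (LDL) in WT, and -1.60 and -2.73 in L2AKO. WT LDL and L2AKO control lay 0.25 apart, within 2 spot SDs, so the order of these arrays was not resolved. Nog differed between genotypes by -0.53 without LDL and by -1.39 with LDL. The larger value rests on the array of the second slide.

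The type II receptor Bmpr2 read 0.43 (control) and 0.48 (LDL) in WT, and 0.55 and 0.44 in L2AKO. No neighbours in this order were further apart than 2 spot SDs. Its genotype difference was 0.12 without LDL and -0.04 with LDL (spot SD 0.07 and 0.06), and the sign of the latter turned under 3 of 10 other ways of processing.

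Smad6 encodes the inhibitory SMAD of the BMP branch. Its values were 1.31 on both WT arrays, and 0.18 (control) and 0.38 (LDL) in L2AKO. The difference between genotypes was -1.13 without LDL (2.19-fold) and -0.92 with LDL (1.90-fold).

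The Id genes encode helix-loop-helix proteins without a DNA-binding region. In WT, Id1 read 6.13 without and 6.00 with LDL, and in L2AKO 3.60 and 3.32. The gap of 2.40 between the lower WT array and the higher L2AKO array was far beyond the spot SD of 0.06. The genotype difference was -2.53 without LDL and -2.68 with LDL, and 1.44% and 1.42% of measured genes were at least as low.

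Id2 and Id3 were lower by less than Id1. Id2 read 3.40 (control) and 3.24 (LDL) in WT and 2.35 and 1.82 in L2AKO, a difference of -1.06 without LDL and -1.42 with LDL. Id3 read 4.88 and 4.91 in WT and 3.80 and 3.83 in L2AKO, and its genotype difference was -1.08 at both LDL states. On Id3 the arrays of a genotype lay 0.03 apart in each line, within the spot SD of 0.06, so at this scaling only the genotype separated its values. Under other processing the LDL difference of Id3 reached 0.13 in WT and 0.14 in L2AKO. For Id2 each of the 3 gaps between neighbours was larger than 2 spot SDs.

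**Figure D2:**
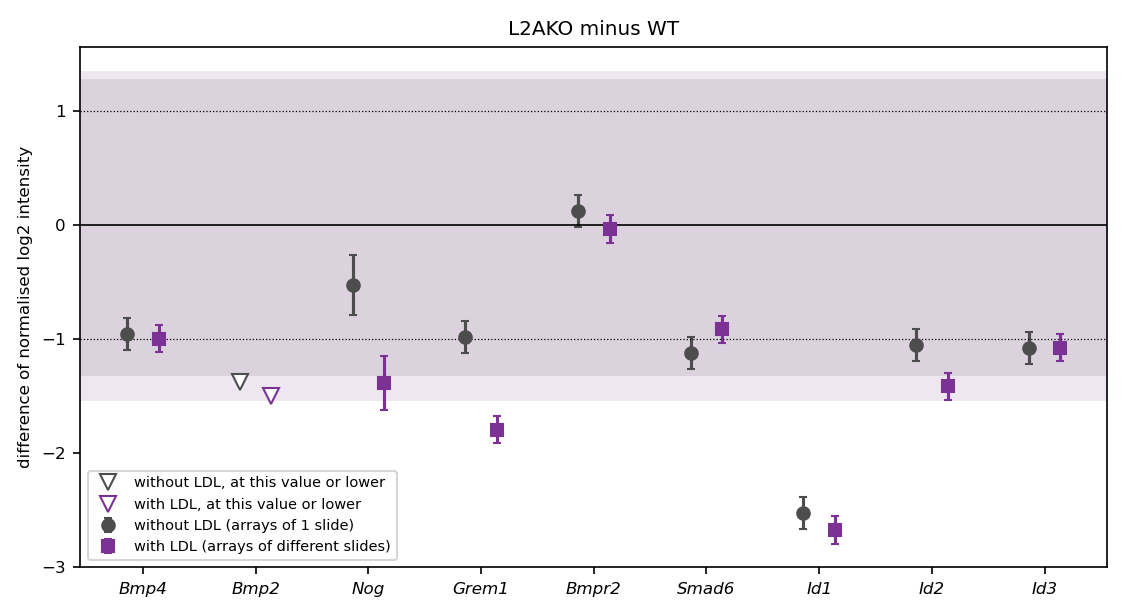
Difference of normalised log2 intensity, L2AKO minus WT (vertical axis), for each gene (horizontal axis), without LDL (circles) and with LDL (squares), with bars of 2 spot SDs, which hold no biological spread. Shading spans the 5th to 95th percentile of all measured genes (-1.33 to 1.28 without and -1.55 to 1.35 with LDL), dotted lines mark 2-fold, and open triangles give approximate bounds for Bmp2. Id1 lies below the shaded range at both LDL states, Grem1 only with LDL, and the other measured genes lie inside it.

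LDL moved these genes little in WT. None of 9 measured members reached 2-fold in either direction, where 0.247% of 12977 genes were higher and 1.02% lower, and the median of the members was -0.13 against -0.05 for all genes. Bmp2 had the widest gap, with a difference of -0.46 (spot SD 0.13), and 4.01% of genes were at least as low. The Id genes differed by -0.13 (Id1), -0.17 (Id2) and 0.03 (Id3). Smad6 differed by 0.00 and Bmpr2 by 0.05, both less than the spot SD of 0.06.

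In L2AKO, LDL was accompanied by lower readings of both antagonists. Of 8 measured members 1, Nog, was at least 2-fold lower and none was higher, against 1.33% lower and 0.93% higher of 13008 genes, on arrays of different slides. Nog differed by -1.14 (2.2-fold lower, spot SD 0.13), with 0.938% of genes at least as low, and Grem1 differed by -0.68 (1.61-fold lower), with 3.22% at least as low. Nog is a dim probe, and its difference no longer reached 2-fold after a normexp background correction (-0.56) or in the values the authors deposited (-0.70). Id2 differed by -0.53, Id1 by -0.28 and Bmp4 by -0.26. Id3 at 0.03 and Smad6 at 0.20 were not lower. Spike-in controls deviated by -1.19 to 0.63 on the second slide, a spread that the spot SDs do not hold.

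Setting the LDL difference of L2AKO against that of WT, none of 8 members reached 2-fold, against 1.39% of 12491 genes higher and 0.721% lower. Nog (-0.86, spot SD 0.18) and Grem1 (-0.81, spot SD 0.09) were lowest, with 1.14% and 1.51% of genes at least as low. The remaining members lay between -0.36 (Id2) and 0.21 (Smad6). This comparison uses all 4 arrays and both slides, and no test of it is possible with 1 array a group.

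**Figure D3:**
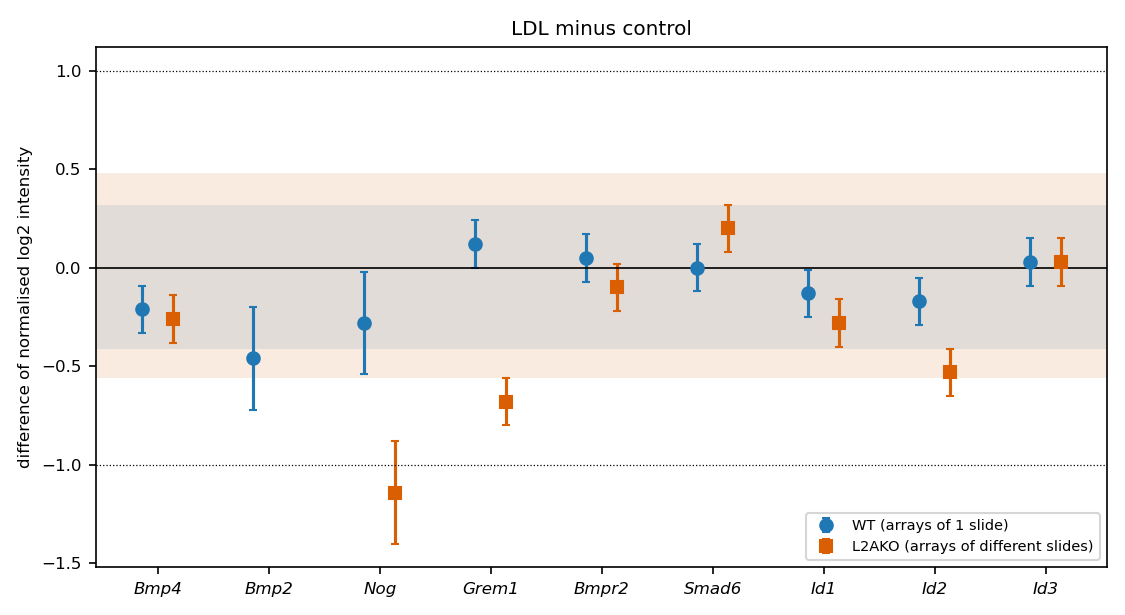
Difference of normalised log2 intensity, LDL minus control (vertical axis), for each gene (horizontal axis) in WT (circles) and in L2AKO (squares), with bars of 2 spot SDs, shading from the 5th to the 95th percentile of all measured genes and dotted lines at 2-fold. Nog at -1.14 and Grem1 at -0.68 in L2AKO lie below the shaded range, Bmp2 in WT at -0.46 does too, and Bmp2 has no value in L2AKO.

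The rest of the pathway was read from lists of ligands, receptors, antagonists, SMADs and targets. Among BMP target genes, 7 of 11 measured were lower in L2AKO by 2-fold or more without LDL and none higher (median -1.08), and 6 of 10 with LDL (median -1.15), set against the 8.21% and 10.4% of all genes above. The list holds Id1, Id2, Id3 and Smad6, so 4 of these 7 are members already described. The homeobox genes Msx1 and Msx2 are induced by BMP signalling in many tissues. Msx1 differed by -3.38 without and -3.29 with LDL, and Msx2 by -2.52 and -2.49, close to Id1. Atoh8, a bHLH transcription factor, differed by -1.30 and -1.22. Dlx5, a homeobox gene of bone formation, was above background in WT only, where it was at least 6.68-fold higher than in L2AKO without LDL and at least 7.90-fold with LDL.

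Other targets differed by less than 2-fold. Smad7, the inhibitory SMAD shared with TGF-beta, differed by -0.48 without and -0.89 with LDL, and Dlx3 by 0.21 and 0.39. For Runx2, the master factor of osteoblasts, the probes disagreed. The brightest differed by -0.29 at both LDL states, and a dimmer one, above background on all arrays, by 0.81 without and 0.04 with LDL. Id4, the remaining Id gene, was dim, with -3.52 (control) and -3.16 (LDL) in WT and -3.75 in L2AKO control, and not well above background in L2AKO LDL. On that array of the second slide it was at least 3.79-fold lower than in WT LDL and at least 2.50-fold lower than in L2AKO control. Bambi, Hey1 and Sp7 were above background on no array. Among targets above background on both arrays compared, LDL gave no 2-fold difference in WT (12 measured) or in L2AKO (10 measured, Id4 not among them), against 1.02% and 1.33% of all genes lower.

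Few other ligands were measured. Of 14 listed, Bmp3, Bmp5, Bmp7, Bmp8b, Bmp10, Bmp15 and Gdf2 were above background on no array. Bmp8a was higher in L2AKO by 1.18 without and 0.78 with LDL, and Gdf5 differed by -1.12 and -0.52. Gdf6 was above background in L2AKO only, at least 9.35-fold higher without LDL and at least 7.62-fold higher with LDL. Gdf7 was dim and above background in L2AKO LDL only, though its readings hardly differed, lying between -4.34 and -4.10 on the 4 arrays. Bmp6 was at least 3.26-fold higher in L2AKO without LDL and at 0.57 with LDL, where both arrays measured it.

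Among the receptors, Acvrl1 (ALK1), the type I receptor best known from endothelium, was higher in L2AKO. It read -1.38 (control) and -1.50 (LDL) in WT and 1.81 and 1.98 in L2AKO, a difference of 3.19 without LDL and 3.48 with LDL. Of 7 endothelial markers, Cdh5, Tek, Tie1 and Emcn were above background on no array and Pecam1 on the L2AKO arrays only. Pecam1 was dim, however, and hardly differed between WT control (-4.09), WT LDL (-4.07) and L2AKO control (-4.06), with -3.65 in L2AKO LDL. Vwf was dim and differed by 0.24 without and 1.10 with LDL. For Kdr the probes disagreed, the brighter differing by -0.38 and 0.25 and the other by 2.06 and 2.13. The 7 summed to 5.74 and 4.59 in WT control and WT LDL and to 4.52 and 5.54 in L2AKO control and L2AKO LDL, in multiples of the 75th percentile. The part of these cells in the Acvrl1 difference was not tested. Of 10 receptors and co-receptors measured without LDL, Acvrl1 alone was at least 2-fold higher and none was lower (median 0.26), against 7.56% higher and 8.21% lower of all genes. Tgfbr3, a co-receptor, differed by 0.73 and 0.79, while Bmpr1a (0.09) and the brighter Acvr1 probe (0.06) were close to 0 without LDL. The other Acvr1 probe, also above background on all arrays, differed by 0.56 without and 0.44 with LDL. With LDL Bmpr1b, a dim probe, was at -1.43, against -0.22 without LDL. Rgmb, a co-receptor, was above background in L2AKO only, at least 1.71-fold higher without and at least 4.0-fold higher with LDL, and 1.05 higher with LDL than without in that line.

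Without LDL, 3 of 13 measured antagonists and extracellular modulators were higher in L2AKO by 2-fold or more and 1 was lower (median -0.23), against 7.56% higher and 8.21% lower of all genes. With LDL 2 of 14 were higher and 3 lower (median 0.11), against 8.3% and 10.4%. Fst, follistatin, which binds activins and some BMPs, was lower by far more than Nog and Grem1, at -6.08 and -6.23. Mgp, matrix Gla protein, an inhibitor of arterial calcification that binds BMP2, was higher by 2.23 and 2.48, and Kcp, a chordin-like protein, by 2.70 and 2.69. Crim1, a transmembrane BMP-binding protein, differed by 1.06 and 0.67. For Tll1, a protease that cleaves chordin, the probes disagreed. The probe that stands for Tll1 was above background in L2AKO only (at least 22.2-fold higher without LDL and at least 22.8-fold with LDL), while its other probe differed by 0.22 and 0.06.

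Of 8 SMADs and SMAD ubiquitin ligases, the signal transducers and their regulators, Smad6 was lower by 2-fold or more without LDL and none was higher (median -0.17), a count near the 8.21% of all genes. With LDL only Smad9, a receptor-activated SMAD, was at least 2-fold lower (-1.44, against -0.86 without LDL). Smad1 (-0.19 and -0.30), Smad5 (-0.14 and -0.30) and the shared Smad4 (0.48 and 0.37) stayed below 1.5-fold. Over all 59 listed pathway genes that are not members, 35 were measured without LDL, of which 5 were higher and 5 lower in L2AKO by 2-fold or more, with a median of 0.06, where 7.56% and 8.21% of all genes were. With LDL 36 were measured, 3 higher and 6 lower, with a median of 0.09, against 8.3% and 10.4%.

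**Figure D4:**
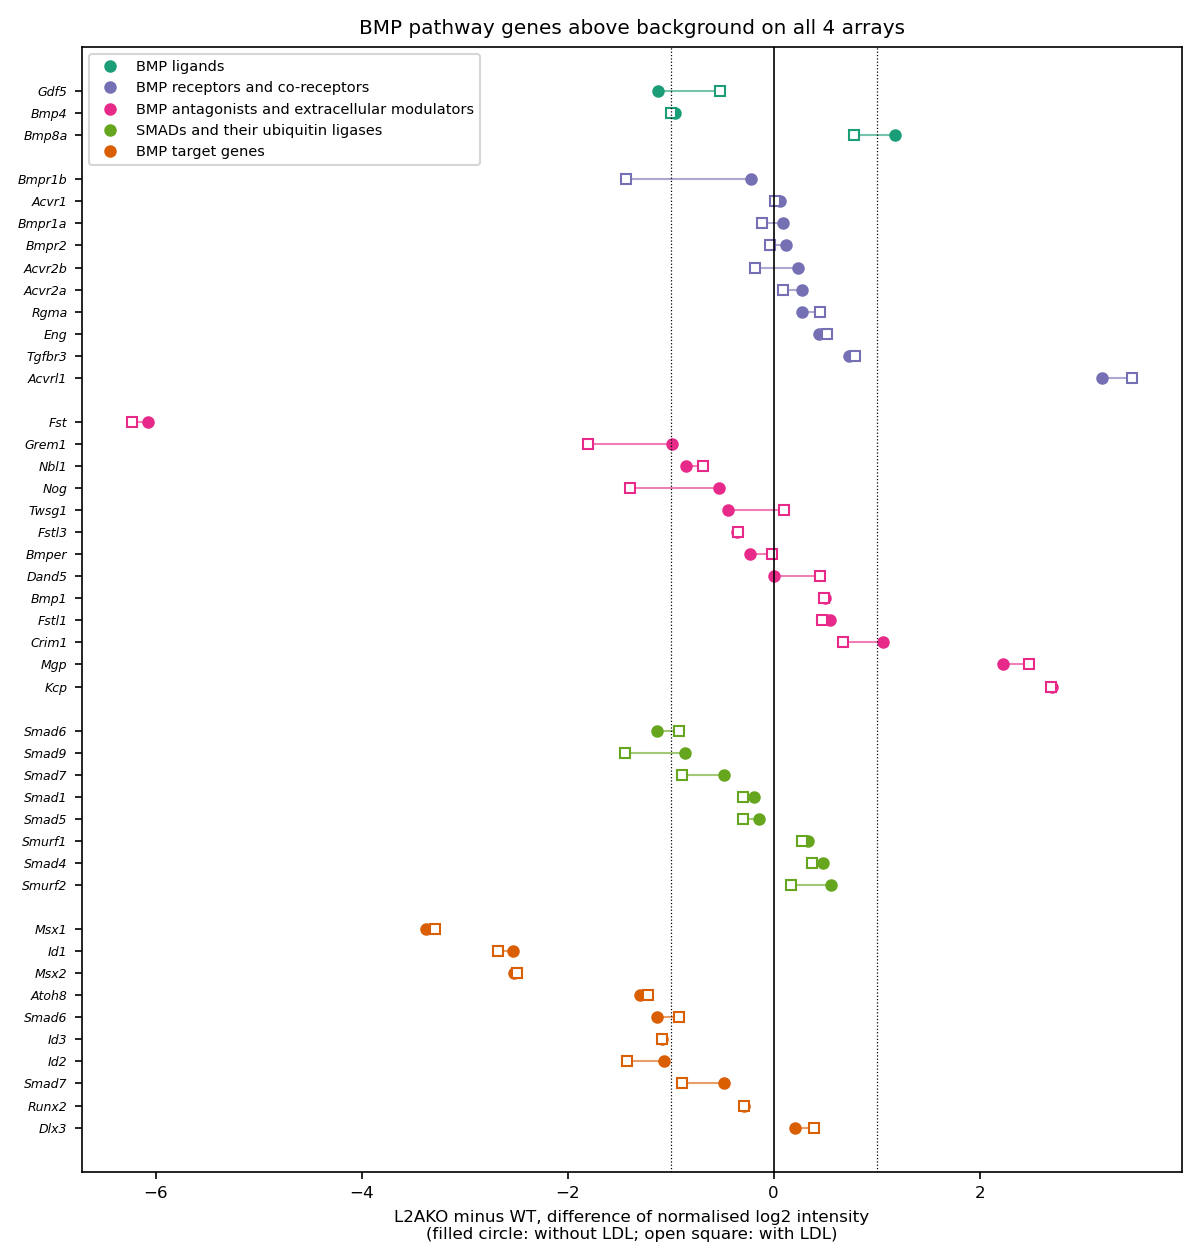
L2AKO minus WT difference of normalised log2 intensity (horizontal axis) for the listed BMP pathway genes above background on all 4 arrays (vertical axis, coloured by list), filled circles without LDL, open squares with LDL, no error bars, dotted lines at 2-fold. Targets lie mostly to the left, with Msx1 at -3.38, Fst is far left at -6.08, and Acvrl1 at 3.19 is far right. Smad6 and Smad7 are on both the SMAD and the target list.

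Other genes also differed between the genotypes. All 11 measured cell cycle genes were lower in L2AKO by 2-fold or more, both without LDL (median -3.27) and with LDL (median -2.90). Their part in the results on Id1, Id2, Id3 and Smad6 was not tested. For this count and those below, 8.21% of all measured genes were lower and 7.56% higher without LDL. With LDL these shares were 10.4% and 8.3%. The summed level of 8 mesothelial and epithelial markers, in multiples of the 75th percentile, was 63.7 and 59.0 in WT control and WT LDL against 18.3 and 21.1 in L2AKO control and L2AKO LDL. All 8 of them were above background on at least 1 array, and of 6 measured without LDL 4 were at least 2-fold lower, such as Msln (-2.31) and Cdh1 (-3.14), and 1 higher, Upk3b (1.17). The 10 smooth muscle markers summed to 200.0 and 176.0 in WT and 141.0 and 136.0 in L2AKO, and the 7 fibroblast markers to 515.0 and 443.0 against 410.0 and 401.0. The brightest probes weigh most in these sums, and single markers went either way. Without LDL 2 of 5 measured smooth muscle markers were at least 2-fold higher, Tagln (1.27) and Cnn1 (1.11), and 1 lower, Actg2 (-1.73). Of 7 fibroblast markers, Serpinf1 (4.28), Pi16 (4.14) and Thy1 (2.75) were higher and 2 lower, such as Dcn (-1.69). Among 7 macrophage markers, Adgre1, Ptprc and Mrc1 were above background on no array, and Cd68, Csf1r, Itgam and Cd14 on all arrays. Cd68 was higher in L2AKO by 1.85 without and 1.79 with LDL, while Csf1r, Itgam and Cd14 differed by less than 2-fold between genotypes. The sums of the macrophage markers were 37.7 and 32.6 in WT and 34.8 and 51.1 in L2AKO. The part of these cell types in the BMP results was not tested.

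The genes with the most similar pattern were found by the Euclidean distance between profiles of the 4 arrays, each centred on its own mean, among 12490 other genes above background on all arrays. With 4 arrays many genes share a pattern, so these names describe the arrays only. Nearest to Id1 were the ephrin ligand gene Efna1 (distance 0.08), Gcnt2 (0.09) and the forkhead factor gene Foxf1 (0.12). Efna1 read 2.64, 2.47, 0.05 and -0.28 in the order WT control, WT LDL, L2AKO control, L2AKO LDL. Nearest to Id2 were Cks1b, Selenos and Tdg-ps2 (each 0.05), and to Id3 Kazald1 (0.03), Ttf2 (0.04) and Ankrd52 (0.05). For Smad6 the nearest were Mpp1 (0.02), Mllt11 (0.06) and Tmem189 (0.07), and for Bmp4 Htatsf1 (0.01), Aamdc (0.03) and Gm10516 (0.04). Grem1 was followed by Grk5 (0.05), Abhd2 (0.08) and Krt81 (0.08), and Nog by Reep1 (0.13), Zfp790 (0.13) and Tspan13 (0.18). Bmpr2 and Bmp2 were not searched, the former because its values span only 0.12 and the latter because it was below background in L2AKO.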

How the data were processed

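Per the labels, 1 µg of total RNA was used for the microarray, and 0.6 µg of Cy3-labelled RNA per condition was hybridised to an Agilent mouse 8x60K array. Per the file headers, Agilent Feature Extraction (version 10.7.3.1) made the deposited scanner files, whose linear spot intensity is background-subtracted. A value table from the authors, also deposited, holds a linear signal, made with oligo and RMA as far as the submitters' processing notes say. Its scaling between arrays stays unknown, and it served as an alternative only. Flags of the scanner software, deposited by the authors as other columns, marked outlier spots, which were left out with control spots, and probes well above background.

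Repeated spots were averaged on the log2 scale and the 75th percentile of the array was subtracted. Probes were named by RefSeq accession through a GRCm38.p6 gene table (28330 of 55679 matched 1 gene). The brightest probe stood for a gene, and a comparison used genes well above background on every array compared. With 1 array a group no test was run, and the number of arrays limits the precision. Genes were named by a rule that took all 9 members, up to 4 genes per list and comparison at 2-fold, list genes above background on no array, and the 3 nearest profiles of members spanning at least 1 log2 unit. Dlx5, Gdf6, Gdf7, Bmp6, Rgmb, Id4 and Tll1, which were dim on some array, and list genes under 2-fold were added after their values were seen. The members and lists were chosen with earlier results of these data known. The calculation of the differences was checked on simulated data with known folds, which is no test of the results. Alternatives covered scaling, background correction (normexp, offset 50, on the median spot signal), the deposited values, dim filters, probe choice and a 1.5-fold limit. Tools were R 4.3.3, limma 3.58.1, Python 3.11.15, numpy 2.4.6, pandas 2.3.3 and matplotlib 3.10.9.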

Additional observations from a re-analysis of the deposited data

Results flagged for a closer look

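Some genes had LDL differences of opposite sign in the lines, each larger than 1 spot SD, but the difference between lines was not tested, there being 1 array a group, and the L2AKO pair spans both slides. Grem1 differed by 0.12 in WT and -0.68 in L2AKO. Bmpr1b, a dim probe, differed by 0.15 in WT and -1.06 in L2AKO. Crim1 stood at 0.18 and -0.21, and Smad9 at 0.19 and -0.39, in the same order. In WT the differences of Grem1, Bmpr1b and Smad9 were within 2 spot SDs, so their sign there was not resolved.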

How the results depend on the processing

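Over 11 alternatives, no called member changed sign in any comparison. The count of members lower in L2AKO by 2-fold or more without LDL (4) was 2 with median scaling and 2 after normexp. With LDL, that count (6) lay between 4 and 7. It was lowest under median scaling, under normexp and for the authors' values. The differences of Id1 lay between -2.53 and -2.44 without LDL and between -2.73 and -2.49 with LDL, and Grem1 with LDL between -1.80 and -1.60. Smad6 without LDL lay between -1.13 and -0.99 and Id2 between -1.06 and -0.97, on both sides of 2-fold, as did Id3 with LDL (-1.08 to -0.89), Bmp4 with LDL (-1.01 to -0.81) and Nog with LDL (-1.39 to -0.71). For LDL in L2AKO, the count of lower members (1) was 0 after normexp, 0 in the deposited values and 2 at 1.5-fold, and 1 member, Bmp2, was higher with no dim filter. In the difference of responses Bmp2 was higher with no filter (1) and with a filter on at least 1 array (1), and 2 members were lower at 1.5-fold. Target genes at least 2-fold lower, alternatives added after the data were seen, were 5 to 8 without LDL and 5 to 9 with LDL. Median scaling moved the median of all genes with LDL from -0.05 to 0.15 and the share of higher among called genes from 44.4% to 60.0%. The next brightest probe gave no value for Bmp4, whose second probe is below background. No paired analysis was possible because each group had 1 array. Dim probes (Bmp2, Nog, Bmpr1b) are limited by their signal over background.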

Other observations

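E proteins, the partners of Id proteins, were measured on all arrays. Tcf4 was higher in L2AKO by 1.30 without LDL and 1.24 with LDL, and its second probe by 1.88 and 1.65. Tcf3 differed by -0.31 and -0.28, and its second probe by -0.37 and -0.07. Tcf12 differed by 0.35 and -0.34, and its second probe by -0.11 and -0.16, so its sign without LDL depended on the probe.

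Markers of bone and cartilage forming cells were mostly low. Sp7, Alpl and Ibsp were above background on no array. Sox9 differed between the genotypes by -0.41 without LDL and -0.74 with LDL, and Col2a1 was higher in L2AKO by 1.14 and 1.06. Bglap read -4.21 (control, not well above background) and -1.86 (LDL) in WT, and -3.34 and -4.26 in L2AKO. It was lower in L2AKO with LDL (-2.4), on arrays of different slides, while without LDL the L2AKO reading was the higher. The 8 markers summed to 6.08 and 6.42 in WT and 5.11 and 4.26 in L2AKO, in multiples of the 75th percentile.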
